A study of Tupaia belangeri with 6 samples.

Results

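Contactins and contactin-associated proteins were followed as 10 genes, CNTN1, CNTN2, CNTN3, CNTN4, CNTN5, CNTN6, CNTNAP1, CNTNAP2, CNTNAP4 and CNTNAP5, each taken as the feature that carries that symbol in the count matrices, out of 83605 features in all. The samples were 6 single-nucleus RNA-seq libraries of the hippocampus of naturally aged tree shrews (TSs), from 3 ALP and 3 control animals by the study's methods, although the labels themselves name no animal. ALP stands for Alzheimer's-like pathology, and these animals were those that the study picked from an aged colony by their performance in a maze, with controls matched to them for age. The study describes no transgene and no drug treatment of the animals. Its methods give imaging under isoflurane, with a labelled glucose injected for PET-CT, before tissue was taken. The labels give no sex, so sex was no term in any test. The libraries are called Control 1, 2 and 3 and ALP 1, 2 and 3 here, and the labels do not say that the numbers pair them.

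Contactins are cell adhesion proteins of the immunoglobulin superfamily that are held in the outer membrane by a lipid anchor. Contactin-associated proteins are their neurexin-like partners, which cross the membrane. CNTN1 and CNTNAP1 join the axon to the myelin loops beside the node of Ranvier, CNTN2 and CNTNAP2 hold potassium channels next to that junction, and CNTN3, CNTN4, CNTN5 and CNTN6 are known for guiding neurites and forming synapses.

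Of 37603 barcodes, 28233 nuclei passed the filters, with 14387 from control TSs and 13846 from ALP TSs. The libraries held 19182981 to 35898940 UMIs (unique molecular identifiers, each standing for 1 captured transcript), and the median kept nucleus held 1502 to 2187. Control 2 was the smallest, with 1614 kept nuclei. The limit of 2500 genes per nucleus removed 16.0% to 46.4% of the barcodes of a library. No pair of libraries shared more than 0.465% of their barcodes. Nuclei fell into 33 clusters, and all but 6 of them were named as a class from marker genes, with "-like" added because no annotation of the nuclei by the authors was used: astrocytes (Astro), oligodendrocytes (Oligo), oligodendrocyte precursors (OPC), microglia (Micro), endothelium (Endo), granule neurons (Gran), pyramidal neurons (Pyra) and inhibitory neurons (InN). The defining markers NRGN, GAD2 and MOBP had no UMI in any class and MBP had none in most, so the Oligo-like and InN-like clusters were named without them. The 6 clusters with no class were left unnamed for low depth, for leading mitochondrial or haemoglobin genes, for markers of another class or for doublets. They held 3005 nuclei of low depth, 1446 of them from Control 3, and 333 other nuclei, and entered no comparison by class.

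9 of the 10 members had UMIs. Together they took 886082 UMIs, or 0.56% of all UMIs in all barcodes, and CNTNAP2 alone, with 473917, ranked 8th among all features. CNTNAP5 (TSDBGID.3746) had 0 UMIs in every library. A separate feature named CNTNAP5li1 (TSDBGID.4531) held 75309 UMIs, but its symbol is not that of a member, so it is given only beside the members. The kept nuclei held 30.2% of the members' UMIs against 39.6% of all UMIs, so the limit on genes took more of the members' UMIs than of all UMIs.

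Levels are given first as CPM, the UMIs of a gene per 1000000 UMIs of the class in a library, as mean ± SD over the 6 libraries. They describe where each gene was found and carry no test, since the classes were built from the same nuclei. The files hold no transcript lengths, so each gene was compared with itself across classes and not with another gene.

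**Figure D1:**
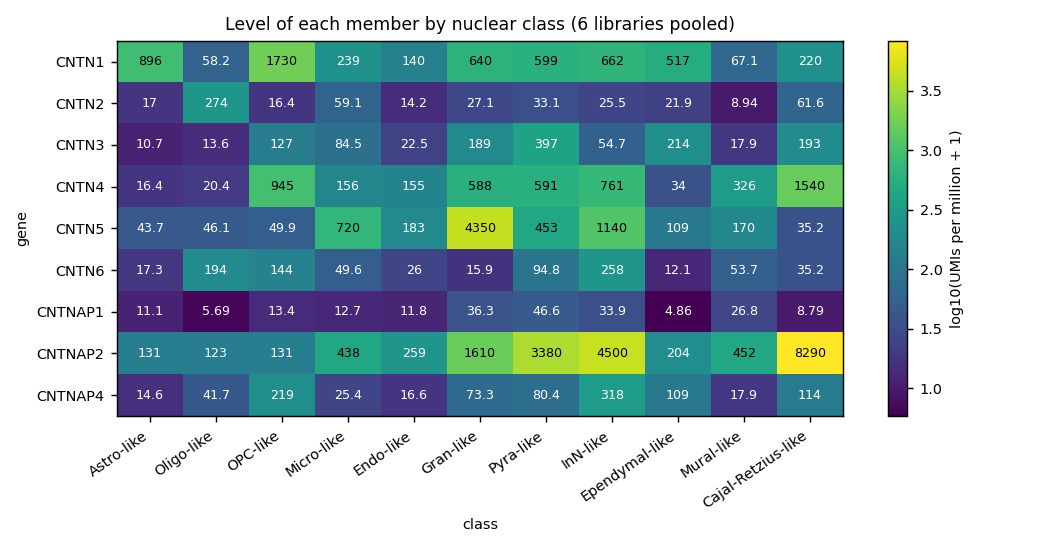
Level of the 9 members with UMIs (vertical axis) in 11 classes (horizontal axis), as CPM of the class with the 6 libraries pooled; colour is log10 of the level plus 1. CNTN2 stands out in Oligo-like nuclei, CNTN1 in OPC-like, CNTN5 in Gran-like, and CNTNAP2 in inhibitory, pyramidal and Cajal-Retzius-like nuclei.

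CNTN1 (TSDBGID.1869), the axonal and glial contactin that binds CNTNAP1 and the receptor phosphatase PTPRZ1, was highest in OPC-like nuclei at 1730 ± 150 CPM (SD, n = 6 libraries), 2.02-fold above Astro-like nuclei at 855 ± 163. The OPC-like values ran from 1540 to 1950 and did not overlap with the Astro-like values. The neuronal classes followed and overlapped with each other, with 669 CPM in Gran-like, 657 in InN-like and 607 in Pyra-like nuclei. Oligo-like nuclei were lowest at 63.2 ± 12.3 CPM, so the level in the 2 classes of the oligodendrocyte lineage lay at opposite ends of the order.

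CNTN2 (TSDBGID.10982), the contactin that oligodendrocytes and axons share at the juxtaparanode, showed the opposite order. Its level was 268 ± 22.2 CPM in Oligo-like nuclei, with a range of 238 to 294, and 4.13-fold lower in the next class, Micro-like, at 64.9 ± 18.5. OPC-like nuclei held 14.8 ± 5.02 CPM. The level was even across the 5 clusters of Oligo-like nuclei, from 227 to 282 CPM as means over the libraries.

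CNTN3 (TSDBGID.16778), a contactin of neuronal projections, was highest in Pyra-like nuclei at 385 ± 76.3 CPM, 2.07-fold above Gran-like nuclei at 186 ± 31.1. The 2 classes did not overlap, with 268 the lowest Pyra-like value and 222 the highest Gran-like one. InN-like nuclei held 54.3 ± 20.3 CPM, below OPC-like nuclei at 120 ± 28.4.

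CNTN4 (TSDBGID.16575), a contactin of axon guidance that binds the amyloid precursor protein, had no single leading class. OPC-like nuclei held 898 ± 153 CPM, InN-like 761 ± 197, Pyra-like 674 ± 245 and Gran-like 576 ± 100, and each of these overlapped with its neighbour in the order. The Pyra-like values were the widest of these, from 310 to 907. Micro-like nuclei followed at 174 ± 72.0, below every Gran-like value, while Oligo-like and Astro-like nuclei held 23.6 and 17.0 CPM.

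CNTN5 (TSDBGID.5621), a contactin known from sensory circuits, was concentrated in granule neurons. Gran-like nuclei held 4120 ± 435 CPM, from 3690 to 4860, which was 3.58-fold above InN-like nuclei at 1150 ± 307 with no overlap. Pyra-like nuclei held 587 ± 354 CPM. Micro-like nuclei held 797 ± 283, most of it in the small cluster led by GPNMB, described with the comparison of the groups.

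CNTN6 (TSDBGID.697), a contactin that takes part in the wiring of the cortex and hippocampus, was highest in InN-like nuclei at 260 ± 52.8 CPM. Oligo-like nuclei came next at 172 ± 232, a mean whose SD exceeds it because 1 library stood apart. OPC-like nuclei held 144 CPM and Pyra-like 117, whereas Gran-like nuclei held 19.3.

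CNTNAP1 (TSDBGID.10373), the paranodal partner of CNTN1, was sparse everywhere. Pyra-like nuclei held 49.2 CPM, Gran-like 41.6 and InN-like 34.0, which overlapped, and Oligo-like nuclei held 5.45 CPM. CNTNAP2 (TSDBGID.23084), the partner of CNTN2 that clusters potassium channels, held 4470 ± 863 CPM in InN-like nuclei and 3440 ± 311 in Pyra-like nuclei, with InN-like higher in 6 of 6 libraries. The order of these 2 classes depended on the limit of 2500 genes, since without it Pyra-like nuclei led at 4430 CPM against 3580. Gran-like nuclei held 1470 CPM and Astro-like nuclei 124. CNTNAP4 (TSDBGID.15324), known for its part in transmission by interneurons, held 317 ± 23.4 CPM in InN-like nuclei and 212 ± 23.4 in OPC-like nuclei, without overlap, and 87.3 in Pyra-like nuclei. The feature CNTNAP5li1 held 970 ± 131 CPM in Gran-like and 793 ± 138 in InN-like nuclei.

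The share of nuclei with at least 1 UMI was compared after thinning each nucleus to 1000 UMIs, since the median depth ran from 1105 UMIs in Micro-like to 4348 in Pyra-like nuclei. Micro-like nuclei, a class of another lineage, are given beside each leading class. They are not a clean measure of free RNA, since their small cluster led by GPNMB held 1687 CNTN5 and 243 CNTN4 UMIs in 185 nuclei, against 126 and 151 in the other 1432, and 12.43% of it was marked as doublets. Nuclei under 1000 UMIs were left out of the thinned shares, so 955 of 1617 Micro-like nuclei entered. CNTN5 was found in 93.5% of thinned Gran-like nuclei (95.7% unthinned, median depth 2802) against 20.4% of Micro-like ones (16.7% unthinned, median 1105). CNTNAP2 was found in 79.0% of InN-like nuclei (92.7% unthinned, median 4275) against 22.9% in Micro-like, and CNTN1 in 77.6% of OPC-like nuclei (90.2% unthinned, median 1859) against 14.6%.

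The less abundant members were also found more often in their leading class than in Micro-like nuclei. CNTN4 was found in 56.8% of OPC-like nuclei (75.5% unthinned) against 9.63% of Micro-like ones, and CNTN3 in 27.1% of Pyra-like nuclei (56.1% unthinned) against 7.03%. CNTN2 was found in 23.5% of Oligo-like nuclei (31.3% unthinned, median 1329) against 5.35%. CNTNAP4 and CNTN6 were found in 24.8% and 20.6% of InN-like nuclei (58.5% and 46.4% unthinned) against 2.25% and 4.26%, and CNTNAP1 in 4.56% of Pyra-like nuclei (17.3% unthinned) against 1.1%. CNTN4 was found in 1.72% of Oligo-like and 1.47% of Astro-like nuclei, both below the Micro-like share.

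Within the neuronal classes, the members differed between clusters, each named here by a leading gene. Levels are mean ± SD over the libraries with at least 10 nuclei in the cluster. CNTN3 held 560 ± 113 CPM (n = 6) in the Pyra-like cluster led by PRSS16 and 533 ± 306 (n = 5) in that led by POSTN, but 69.7 ± 73.3 (n = 5) in that led by COL8A1. CNTN4 had another order, with 1260 ± 356 CPM in the COL8A1 cluster, 913 ± 463 in the POSTN cluster and 285 ± 306 in the PRSS16 cluster. The last mean hides a range of 45.9 to 836 CPM, and with libraries pooled it was 125. CNTN5 in Pyra-like nuclei reached 1560 ± 882 CPM in the cluster led by TSHZ2 and 179 ± 256 in that led by POSTN.

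Inhibitory clusters split as widely. The cluster led by CALCR and VIP, an interneuron type that targets other interneurons, held the highest mean InN-like levels of CNTN4, at 1380 ± 274 CPM, CNTN6, at 485 ± 79.9, and CNTNAP2, at 6610 ± 1090, each overlapping with the next cluster. CNTN5 was instead highest in the cluster led by LAMP5, at 3010 ± 515 CPM, against 239 ± 138 in the cluster led by SST. CNTNAP2 was at 1320 ± 238 CPM in the cluster led by CNR1, while the means of CNTNAP4 in the inhibitory clusters ran from 274 to 399 CPM.

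**Figure D2:**
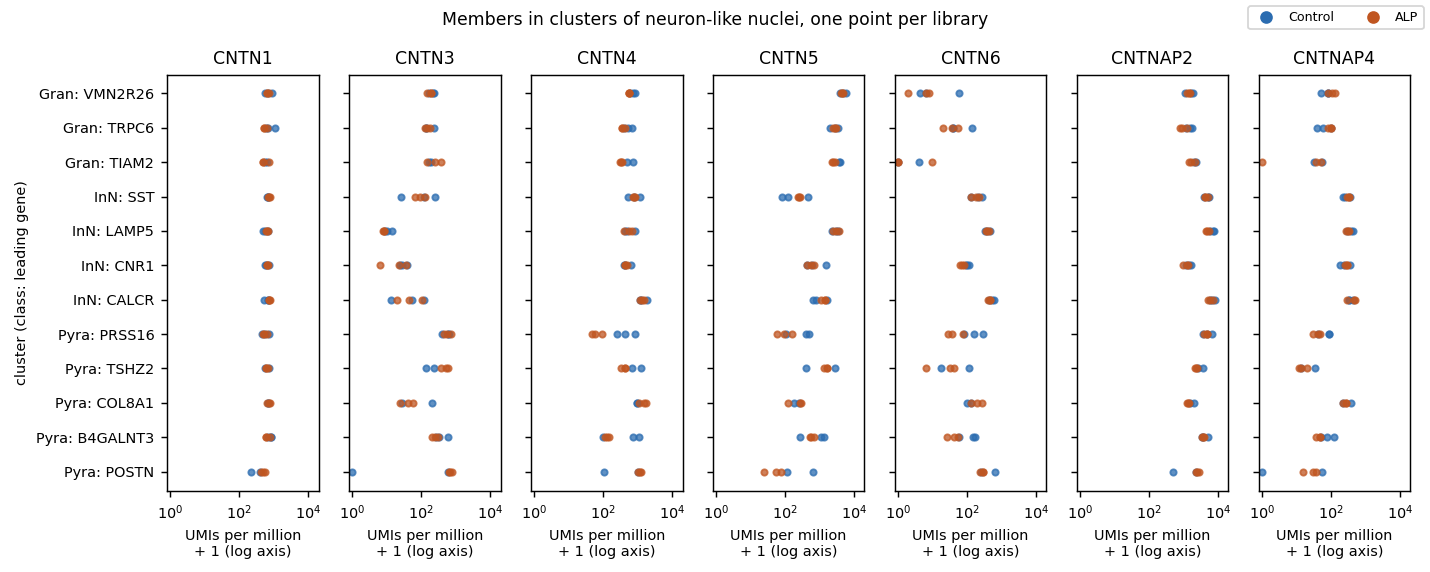
Level of 7 members in each cluster of the 3 neuronal classes (vertical axis), as CPM of the cluster plus 1 on a log axis, with 1 point for each library with at least 10 nuclei there. CNTN4 and CNTN5 spread widely over the Pyra-like clusters, and the ALP points of CNTN4 lie below the control points in the cluster led by PRSS16.

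Genes with the most similar pattern were found by the Pearson correlation of log2(CPM + 1) over 31 clusters of at least 50 nuclei, among 4171 genes, and these correlations are descriptions, since clusters share libraries and depth. NRCAM, an adhesion protein of the L1 family, was most like CNTN1 (r = 0.951), BIN1 was most like CNTN2 (r = 0.947) and ATRNL1 most like CNTN4 (r = 0.94). For CNTN5, TIAM1 led at r = 0.906, and for CNTNAP2, NYAP2 at r = 0.96. REEP1 led for CNTNAP1 (r = 0.934), CACNA1E for CNTN3 (r = 0.823), MACROD2 for CNTNAP4 (r = 0.791) and PTPRD for CNTN6 (r = 0.787). Among the members themselves the highest correlations were CNTN4 with CNTNAP1 (r = 0.81) and CNTN5 with CNTNAP2 (r = 0.77). CNTN1 correlated at 0.63 with its partner CNTNAP1, whereas CNTN2 and CNTNAP2 gave -0.32.

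ALP and control TSs were then compared class by class, to ask whether adhesion genes of this family differed in the hippocampus of ALP TSs. UMIs were summed over the nuclei of a class in each library and tested with edgeR's quasi-likelihood test, with p-values adjusted over all genes of the class. A gene was called at an adjusted p under 0.05 and a log2 fold change beyond 0.25. Levels in these tests are CPM scaled by edgeR's TMM factors, and overlap of the groups is judged on these scaled values unless stated. Over all barcodes, the most abundant feature took 14.9%, 20.6% and 16.9% of the UMIs in control libraries. It took 26.1%, 22.8% and 29.0% in ALP libraries, and its part in the unscaled CPM was not tested. The scaling can change the reading. CNTN1 in Pyra-like nuclei held 626, 622 and 630 CPM in control and 568, 661 and 535 in ALP libraries before scaling. After scaling it held 579, 597 and 600 CPM against 629, 679 and 649, without overlap. In such sums, fewer nuclei of a subtype and less RNA per nucleus cannot be told apart.

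No member was called in any of the 8 classes, in 66 tests. Of all genes tested, 0.207% were called in Astro-like nuclei, 4.59% in Oligo-like, 1.62% in OPC-like, 0.539% in Micro-like, 0% in Endo-like, 1.05% in InN-like, 2.1% in Gran-like and 0% in Pyra-like nuclei. DESeq2 called no member either. 11 of the 66 tests had an unadjusted p under 0.05. They were 0 of 9 members in Astro-like nuclei against 16.8% of all genes, 2 of 9 in Oligo-like (21.5%), 2 of 9 in OPC-like (15.4%), 1 of 8 in Micro-like (14.1%), 1 of 4 in Endo-like (6.18%), 1 of 9 in InN-like (19.7%), 2 of 9 in Gran-like (18.3%) and 2 of 9 in Pyra-like nuclei (16.9%). Read against these shares, the members' counts are no result about the family. The groups did not overlap in 7 of the 66 tests. These were 2 of 9 members in Oligo-like nuclei against 23.2% of all genes, 1 of 9 in InN-like (24.3%), 1 of 9 in Gran-like (21.9%), 3 of 9 in Pyra-like (22.1%) and 0 in Astro-like (21.7%), OPC-like (18.8%), Micro-like (16.9%) and Endo-like nuclei (10.5%). In Pyra-like nuclei, where edgeR called 0 of 13112 genes, 2214 had an unadjusted p under 0.05 and DESeq2 called 325; in Endo-like nuclei 94 did and DESeq2 called 1.

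**Figure D3:**
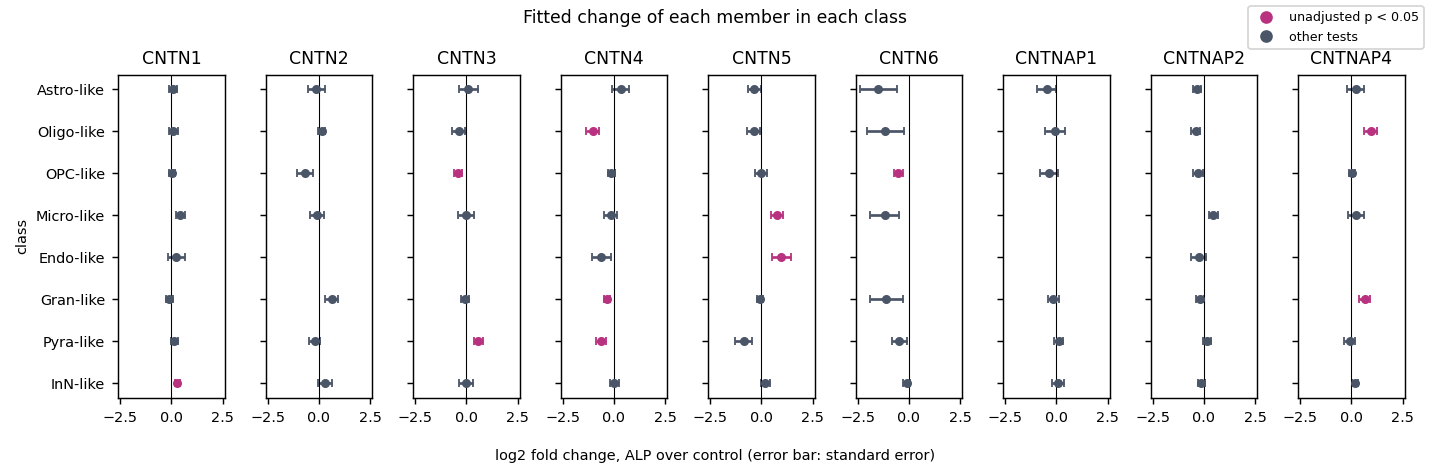
Fitted log2 fold change, ALP over control (horizontal axis, with its standard error), of the 9 members with UMIs in each class where the member was tested (vertical axis); the 11 tests with an unadjusted p under 0.05 are coloured. CNTN4 lies below 0 in Oligo-like nuclei and both excitatory classes and CNTNAP4 above 0 in Oligo-like and Gran-like nuclei, and no point passed the adjusted threshold.

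Within the 8 classes, CNTN4 gave the smallest adjusted p of a member, in Oligo-like nuclei. Its levels were 21.2, 49.3 and 30.3 CPM in the control libraries and 16.0, 13.4 and 14.1 in the ALP libraries. Every ALP library was below every control library, on counts of 14 to 79 UMIs per library. The log2 fold change was -1.03 ± 0.32 (SE) (adjusted p = 0.0909 by edgeR). The thinned share of nuclei with a CNTN4 UMI was 2.23% ± 0.377 (SD, n = 3) in control and 1.37% ± 0.168 in ALP libraries, with p = 0.1 in the 2-sided exact permutation test, the smallest p that 3 against 3 allows. The summed level of 8 neuron markers in Oligo-like nuclei, 6 of them with UMIs and NRGN and GAD2 at 0, was 248 to 465 CPM in control and 251 to 286 in ALP libraries, and its part in the CNTN4 difference was not tested. The mix of Oligo-like clusters also differed between the groups. The cluster led by TNFAIP6 held 80, 35 and 93 nuclei in control and 658, 465 and 1006 in ALP libraries, and that led by DACH2 held 1006, 51 and 492 against 171, 262 and 184. For each Oligo-like value given here, a change in this mix and a change in level cannot be told apart from the class sums.

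The same gene was also at a lower level in ALP libraries in both excitatory classes. In Gran-like nuclei CNTN4 held 712, 709 and 588 CPM in the control libraries and 541, 510 and 525 in the ALP libraries, which did not overlap. The fitted change was -0.35 ± 0.15 on the log2 scale (adjusted p = 0.234). The thinned share of Gran-like nuclei with a CNTN4 UMI did overlap. It was 43.3% ± 6.66 (SD, n = 3) in control and 35.5% ± 1.01 in ALP libraries (p = 0.2, exact permutation test). In Pyra-like nuclei it held 807, 779 and 864 CPM in control and 493, 716 and 376 in ALP libraries.

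The Pyra-like groups did not overlap either, and ALP 2 was the closest to the control range. The mix of Pyra-like clusters differed between libraries. The PRSS16 cluster, with less CNTN4 than those led by COL8A1 and POSTN, held 113 of 512, 53 of 152 and 29 of 212 nuclei in control. It held 256 of 588, 167 of 670 and 258 of 511 in ALP libraries. The part of this mix in the CNTN4 value was not tested. The thinned share of Pyra-like nuclei with a CNTN4 UMI did overlap. It was 38.6% ± 11.3 (SD, n = 3) in control and 26.1% ± 6.73 in ALP libraries (p = 0.2, exact permutation test). The log2 fold change of CNTN4 was -0.63 ± 0.24 (adjusted p = 0.228). Without the limit of 2500 genes it was -0.04 (adjusted p = 0.954), so the difference was close to 0 once nuclei above the limit were included. In InN-like nuclei, at 0.02 ± 0.21, and OPC-like nuclei, at -0.12 ± 0.15, the groups overlapped.

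CNTN3 held 248, 408 and 307 CPM in control and 487, 482 and 468 in ALP libraries in Pyra-like nuclei. These scaled ALP values lay above all control values, of which Control 2 came closest. Before scaling the groups overlapped, at 268, 426 and 323 CPM in control and 439, 469 and 386 in ALP libraries. The thinned share of nuclei with a CNTN3 UMI overlapped too. It was 22.5% ± 7.13 (SD, n = 3) in control and 30.5% ± 1.37 in ALP libraries (p = 0.2, exact permutation test). The fit gave a log2 fold change of 0.58 ± 0.21 (adjusted p = 0.204), and 0.35 without the limit of 2500 genes. The PRSS16 cluster, one of the 2 Pyra-like clusters with the most CNTN3, held 113, 53 and 29 nuclei in control and 256, 167 and 258 in ALP libraries, and the part of this mix in the class value was not tested. Within single clusters CNTN3 gave 0.31 ± 0.24 in the PRSS16 cluster (adjusted p = 0.65) and -0.40 ± 0.32 in that led by B4GALNT3 (adjusted p = 0.617), with overlapping groups in both.

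Over all kept nuclei together CNTN3 gave a smaller adjusted p than any member did in a class. It held 114, 121 and 70.2 CPM in control and 202, 176 and 169 in ALP libraries, which did not overlap. The log2 fold change was 0.84 ± 0.21 (adjusted p = 0.0795), not called, and there the mix of classes and the level within a class cannot be told apart. In OPC-like nuclei CNTN3 gave -0.42 ± 0.19 (adjusted p = 0.309) with overlapping groups.

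CNTNAP4 in Oligo-like nuclei held 32.6, 7.05 and 32.3 CPM in control and 40.9, 67.3 and 55.3 in ALP libraries, where Control 2 rests on 2 UMIs. The groups did not overlap, and the cluster mix given for CNTN4 differed here too. The log2 fold change was 0.93 ± 0.32 (adjusted p = 0.117). The thinned share of nuclei with a CNTNAP4 UMI was 2.13% ± 1.44 (SD, n = 3) in control and 4.85% ± 1.3 in ALP libraries (p = 0.1, exact permutation test). In 4 Oligo-like clusters tested alone, a choice made after the data were seen, the log2 fold changes were 0.39, 0.69, 1.43 and 1.03. Their adjusted p were 0.8, 0.513, 0.104 and 0.167 by edgeR, and the groups overlapped in all but the cluster with 1.43. Control 2 held 0 to 2 CNTNAP4 UMIs in each. These clusters are parts of the class sum, so their shared sign is no separate evidence.

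In Gran-like nuclei CNTNAP4 held 47.7, 73.7 and 82.7 CPM in control and 123, 75.5 and 109 in ALP libraries. The groups overlapped, since ALP 2 lay below Control 3. CNTNAP4 gave 0.65 ± 0.26 on the log2 scale (adjusted p = 0.206).

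On the scaled values CNTN1 gave the most even difference, in InN-like nuclei. It held 611, 629 and 594 CPM in the control libraries and 757, 747 and 736 in the ALP libraries. The scaled groups lay apart and each was tight, but the change was small, at a log2 fold change of 0.29 ± 0.11 (adjusted p = 0.191). Before scaling the groups nearly touched, at 642, 619 and 621 CPM in control and 685, 730 and 644 in ALP libraries. The thinned share of nuclei with a CNTN1 UMI overlapped. It was 45.7% ± 0.727 (SD, n = 3) in control and 48.4% ± 2.82 in ALP libraries (p = 0.3, exact permutation test). In Pyra-like nuclei the scaled groups did not overlap either, at a log2 fold change of 0.14 ± 0.16 (adjusted p = 0.698). In Gran-like nuclei the log2 fold change of CNTN1 was -0.10 ± 0.18 and in OPC-like nuclei, where CNTN1 was most abundant, 0.03 ± 0.13.

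**Figure D4:**
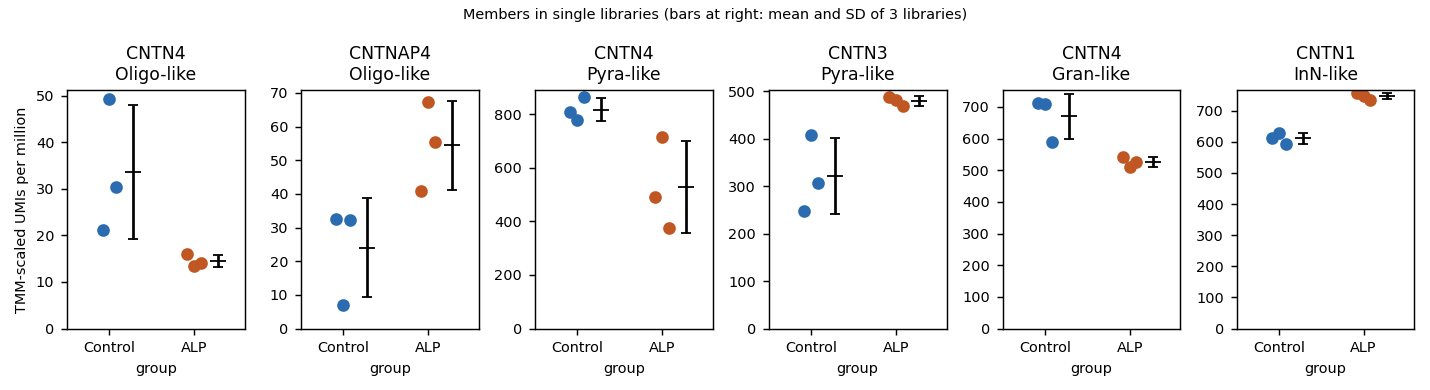
Level in each library, as TMM-scaled CPM from 0 (vertical axis), of 6 pairs of a member and a class in control and ALP libraries, with mean and SD of 3 libraries at the right of each group. The 6 pairs were chosen after their values were seen, from the 7 whose groups do not overlap on this scale, and none passed the adjusted threshold.

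CNTN5 in Micro-like nuclei held 530, 1080 and 474 CPM in control and 1210, 858 and 1290 in ALP libraries. Control 2 lay among the ALP values. The change was 0.76 ± 0.29 on the log2 scale (adjusted p = 0.272), and without Control 2 it was 1.16 and called (adjusted p = 0.0108), while without the limit of 2500 genes it was 0.14. The cluster led by GPNMB, with 185 nuclei, held 2540 CPM of CNTN5 (libraries pooled), and without it the change was 0.25 (adjusted p = 0.862). The same neuron markers, with NRGN and GAD2 at 0, summed to 1090 to 1380 CPM in control and 1340 to 1440 in ALP libraries in Micro-like nuclei, and their part was not tested. In Endo-like nuclei CNTN5 gave 0.97 ± 0.46 (adjusted p = 0.809), on 2 to 75 UMIs per library.

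CNTN5 and CNTNAP2 differed little where they were most abundant. CNTN5 in Gran-like nuclei held 4970, 3750 and 4400 CPM in control and 4060, 4020 and 4500 in ALP libraries, a log2 fold change of -0.06 ± 0.16 (adjusted p = 0.896). CNTNAP2 in InN-like nuclei held 5550, 4010 and 4720 CPM against 4210, 4870 and 4050, at -0.12 ± 0.15 (adjusted p = 0.715). In Pyra-like nuclei CNTNAP2 gave 0.13 ± 0.20 (adjusted p = 0.778).

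CNTN2 in Oligo-like nuclei was also close between the groups. It held 283, 243 and 255 CPM in control and 298, 255 and 315 in ALP libraries, at 0.14 ± 0.17 (adjusted p = 0.679). CNTNAP1 gave changes from -0.48 to 0.11 in the classes where it was tested, on 23 to 383 UMIs per group, with no unadjusted p under 0.05.

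CNTN6 showed the widest spread between libraries of any member. In Oligo-like nuclei it held 36.9, 49.3 and 617 CPM in control and 142, 24.2 and 172 in ALP libraries. Control 3, with 1606 UMIs, was far above the other 5 libraries, which held 14 to 343 UMIs. The log2 fold change was -1.15 ± 0.89 (adjusted p = 0.495), and without Control 3 it turned to 1.48 (adjusted p = 0.32).

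The high level of Control 3 was seen in all 5 clusters of Oligo-like nuclei, at 514 to 682 CPM before TMM scaling. After thinning, 42.5% of its Oligo-like nuclei had a CNTN6 UMI, against 2.02% to 13.2% in the other libraries. In InN-like nuclei Control 3 lay within the range of the others. The feature named antisense to CNTN6, CNTN6-AS-1, stood out in the same nuclei of Control 3, at 224 CPM against 4.63 to 10.6.

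**Figure D5:**
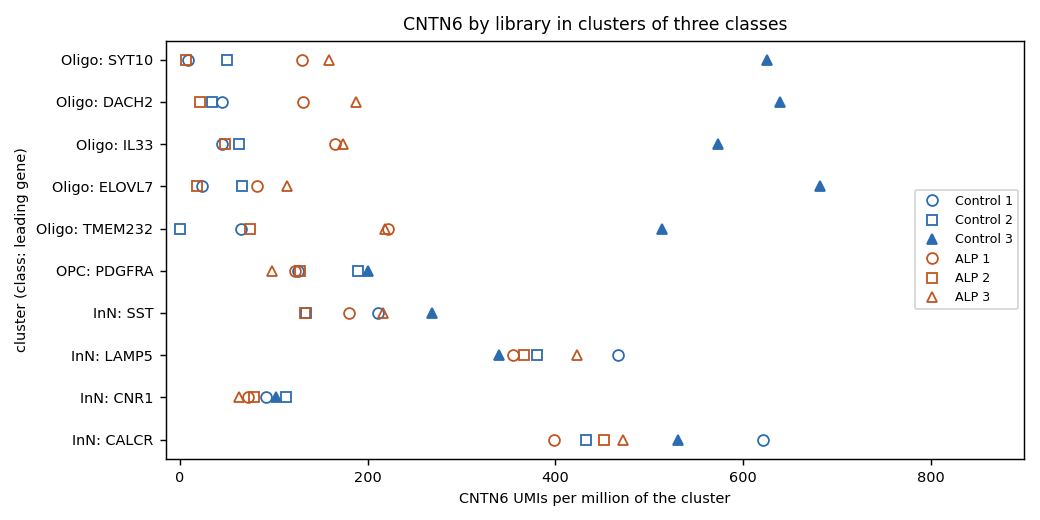
CNTN6 level in each library, as CPM of the cluster (horizontal axis), in the clusters of Oligo-like, OPC-like and InN-like nuclei (vertical axis). Control 3, the filled triangle, lies at 514 to 682 in every Oligo-like cluster, apart from the other libraries.

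In OPC-like nuclei CNTN6 held 127, 206 and 213 CPM in control and 133, 136 and 108 in ALP libraries. The groups overlapped through Control 1. The fit gave -0.51 ± 0.22 (adjusted p = 0.275).

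The comparison was repeated within single clusters, an alternative added after the data were seen. Among 122 tests of members in 17 clusters, 18 had an unadjusted p under 0.05, against 14.1% of all tests in those fits, and 1 was called, against 0.767%. Both counts are near the shares over all genes, so they are no result about the family. P-values were adjusted within each cluster and not over the 17 fits. The OPC-like and Endo-like classes are single clusters, so their tests here repeat the class tests. The call was CNTN4 in the Pyra-like cluster led by PRSS16, which holds 876 nuclei, and where 0.112% of 7136 genes were called. CNTN4 there held 258, 836 and 422 CPM in control and 45.9, 90.5 and 58.6 in ALP libraries, before TMM scaling.

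Every ALP library lay below every control library, and the control libraries differed widely among themselves. The TMM-scaled means were 499 ± 293 CPM (SD, n = 3) in control and 75.7 ± 22.2 in ALP libraries, a log2 fold change of -2.73 ± 0.40 (adjusted p = 0.0253). The cluster held 113, 53 and 29 nuclei in control and 256, 167 and 258 in ALP libraries. Without thinning, a CNTN4 UMI was found in 37.2%, 64.2% and 17.2% of these nuclei in control and 15.6%, 26.3% and 24.0% in ALP libraries. The shares overlapped, where the level did not, only through Control 3, whose value rests on 39 UMIs in 29 nuclei. These shares are not matched for depth, which was greater in the ALP libraries.

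The CPM given next are before TMM scaling. Some other genes of the cluster also differed between libraries. PRSS16, which leads it, held 52.9, 17.9 and 21.6 CPM in control and 55.1, 47.1 and 54.8 in ALP libraries, and GRIK4, a glutamate receptor gene that marks a field of pyramidal neurons, held 15.4, 49.2 and 64.9 against 12.7, 25.3 and 7.65. Control 2 and Control 3 were lower in PRSS16 and higher in GRIK4 than Control 1, which lay within the ALP range in both. These values rest on few UMIs in Control 2 and Control 3, with 53 and 29 nuclei, so their order is uncertain. FIBCD1, a marker of another field, held 22.1, 17.9 and 21.6 CPM in control and 23.3, 18.1 and 21.7 in ALP libraries, with the same limit. The 7 granule neuron markers summed to 214, 40.2 and 292 CPM against 137, 174 and 142, and their part was not tested. The median nucleus held 3401 to 4617 UMIs in control and 5600 to 6261 in ALP libraries, and the part of depth was not tested. A different mix of neurons in this cluster and a lower level per nucleus cannot be told apart.

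The call held with DESeq2 (adjusted p = 9.03e-07), without the low-count filter, with the replicate block and without Control 1, Control 2 or ALP 2. It was lost under the other alternatives that were run. The adjusted p was 0.132 without Control 3 (log2 fold change -2.81), 0.27 without ALP 1 (-2.50) and 0.161 without ALP 3 (-2.70). It was 0.0597 with marked doublets left out (-2.65) and 0.277 in the matching cluster at resolution 1 (-1.08). With the members kept out of the genes that built the clusters it was 0.0841 (-2.17). The alternative without the upper limit on genes per nucleus was not tested in this cluster. Over the whole Pyra-like class, that alternative moved the log2 fold change of CNTN4 from -0.63 to -0.04. CNTN5 and CNTN6 in the PRSS16 cluster gave -1.47 ± 0.45 (adjusted p = 0.253) and -1.72 ± 0.45 (adjusted p = 0.169). In the Pyra-like cluster led by B4GALNT3, CNTN4 gave -2.14 ± 0.55 (adjusted p = 0.0802) and CNTN6 -1.61 ± 0.40 (adjusted p = 0.0762). CNTNAP2 in the LAMP5 cluster gave -0.35 ± 0.13 (adjusted p = 0.192), from 7500 ± 622 to 5860 ± 292 CPM.

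Whether a member's change differed between classes was tested directly, with limma on the within-library difference of log2 CPM between 2 classes. Of 34 tests of members over 4 pairs of classes, 0 were called at an adjusted p under 0.05, and 7 had an unadjusted p under 0.05. The 7 were CNTN2, CNTN3 and CNTNAP4 for Gran-like against Pyra-like nuclei and CNTN3 and CNTN4 for Pyra-like against InN-like nuclei. The others were CNTN4 and CNTNAP4 for Oligo-like against OPC-like nuclei. Each pair had 9 members tested, except Oligo-like against OPC-like nuclei with 7. Among all genes, 0.0201% were called for Gran-like against Pyra-like nuclei and 0% for Gran-like against InN-like, Pyra-like against InN-like and Oligo-like against OPC-like nuclei, and 8.97%, 5.4%, 7.45% and 6.47% had an unadjusted p under 0.05. CNTN4 differed between Oligo-like and OPC-like nuclei by -0.97 ± 0.32 (adjusted p = 0.737) and CNTNAP4 by 1.45 ± 0.47 (adjusted p = 0.736). CNTN2 gave the smallest adjusted p, 0.366, for Gran-like against Pyra-like nuclei (0.90 ± 0.26). No member was therefore shown to change in 1 class more than in another.

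The partners of the family were counted from a list of 28 genes, among them NFASC, NRCAM and L1CAM of the L1 family, the receptor phosphatases PTPRZ1, PTPRG and PTPRA, the amyloid precursor family, potassium channel subunits and neurexins. All 28 are features of the matrices, but only 9 to 22 of them had enough UMIs to be tested in a class. L1CAM, for 1, was not tested in Astro-like, Oligo-like, OPC-like or Micro-like nuclei. Of the partners tested, 0 were called in any class. In Oligo-like nuclei 6 of 21 tested partners had an unadjusted p under 0.05, against 21.5% of all genes. All 6 were lower in ALP libraries, and 11.1% of all genes were lower at such a p. The median log2 fold change of the 21 was -0.53 against 0 for all genes. The neuron markers in these nuclei summed to 248 to 465 CPM in control and 251 to 286 in ALP libraries, the cluster mix differed as given for CNTN4, and the part of either was not tested. The largest of these was NCAN, a proteoglycan that binds CNTN2, at -1.42 ± 0.37 (adjusted p = 0.0514).

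In Gran-like nuclei PTPRZ1, the receptor phosphatase that binds CNTN1, gave 0.69 ± 0.17 (adjusted p = 0.0573), and 3 of 21 partners had an unadjusted p under 0.05, against 18.3% of all genes. The counts were 6 of 22 in Astro-like nuclei (2 higher and 4 lower, against 16.8% of all genes), 2 of 19 in OPC-like (15.4%), 1 of 17 in Micro-like (14.1%), 0 of 9 in Endo-like (6.18%), 0 of 21 in Pyra-like (16.9%) and 2 of 21 in InN-like nuclei (19.7%). In InN-like nuclei, where CNTN1 was higher in each ALP library, its adhesion partner NRCAM gave 0.38 ± 0.17 (adjusted p = 0.245).

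The annotation also holds 49 features named antisense to a member, and several of them passed the test in Gran-like and InN-like nuclei only. Of their host genes, CNTNAP5 had 0 UMIs and could not be tested, and the others did not pass. In Pyra-like nuclei 0 of 14 tested antisense features were called, and 10 were lower in ALP libraries. There 0 of all 2341 antisense-named features were called. The counts were 0 of 1 in Astro-like (0.871% of all antisense-named features), 0 of 2 in Oligo-like (13.6%), 0 of 3 in OPC-like (7.28%) and 0 of 2 in Micro-like nuclei (2.71%). In Gran-like nuclei 4 of 14 tested were called, all lower in ALP libraries, where 8.09% of all 1644 antisense-named features were called lower. CNTNAP2-AS-3 held 168, 161 and 237 CPM in control and 97.1, 78.3 and 79.8 in ALP libraries there. The groups did not overlap, and the log2 fold change was -1.17 ± 0.20 (adjusted p = 0.0229), while CNTNAP2 itself gave -0.19 ± 0.19 (adjusted p = 0.671).

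CNTN5-AS-1 fell by 1.90 on the log2 scale (adjusted p = 0.03), CNTN3-AS-4 by 2.54 (adjusted p = 0.0427) and CNTNAP5-AS-9 by 2.20 (adjusted p = 0.0446). In InN-like nuclei 3 of 16 were called, all lower, where 3.5% of 1970 antisense-named features were. CNTNAP2-AS-3 held 529, 502 and 923 CPM in control and 251, 289 and 174 in ALP libraries, again without overlap, at -1.45 ± 0.25 (adjusted p = 0.0486). CNTNAP2-AS-14 and CNTNAP2-AS-15 gave -1.16 ± 0.23 and -1.89 ± 0.36 (adjusted p = 0.0489 for both).

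These calls were not firm. Leaving out Control 3, ALP 1, ALP 2 or ALP 3 left 0 of the antisense features called in either class, as did the replicate block and leaving the members out of the genes that built the clusters. In InN-like nuclei 0 were also called with marked doublets left out and at resolution 1. A lower level in ALP libraries was also general among antisense-named features, whose median log2 fold change was -0.57 in Gran-like and -0.61 in InN-like nuclei against 0.07 and 0.06 for all other features. The use of strand in counting is not given in the sources used here, so reads of a host gene and of its antisense feature may not be fully separated, and each of these values is uncertain.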

How the data were processed

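The deposited count matrices hold raw UMI counts per feature and nucleus barcode, 1 library per animal, which the authors made with Cell Ranger 3.1.0 per the submitters' processing notes (the matrix headers name another version) against a genome from TreeshrewDB. The build, the annotation version and the use of strand are not given in the sources used here. Barcodes with over 200 and under 2500 genes and under 5% mitochondrial UMIs were kept, as in the study's methods. Nuclei were normalised to 10000 UMIs and clustered with scanpy 1.11.5 and leidenalg 0.10.2 on 2000 variable genes, 30 principal components and 20 neighbours at resolution 2. Clusters took a class name from at least 3 markers.

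UMIs were summed per library and class over at least 10 nuclei and tested with edgeR 4.0.16 (TMM, filterByExpr with minimum count 10, quasi-likelihood test, R 4.3.3) across all features, with Benjamini-Hochberg adjustment. Differences between classes were fitted with limma 3.58.1 on log2 CPM with a prior count of 1, over genes with at least 10 UMIs in both classes in at least 3 libraries. The edgeR and limma steps were tested on simulated data. Shares were thinned to 1000 UMIs, leaving out shallower nuclei, and compared with 2-sided exact permutation tests. P-values measure the spread between these libraries, and their number, 3 per group, limits the precision.

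Doublets were marked by a nearest-neighbour score against simulated doublets, 1.12% to 3.89% of the kept nuclei of a library, and were kept in the main results. Alternatives were DESeq2 1.42.0, a fit of every gene with a UMI, a block for the replicate number, fits that dropped 1 library, nuclei of any gene number, marked doublets left out, resolution 1, and the members kept out of the variable genes. All members were named in every class. Partners were named where called, up to 6 per class, or beside a member they bind, and NCAN and PTPRZ1 were also singled out after their values were seen. CNTNAP5li1, CNTNAP3 and the antisense-named features were added in the same way. The members and all lists were chosen with earlier results of these data known. Some marker values are not reported here.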

Additional observations from a re-analysis of the deposited data

Results flagged for a closer look

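Levels of members per library were checked for a library far from the other 5, by the gap to its nearest neighbour relative to the range of the 6 libraries, with Dixon's critical value. These levels are CPM before TMM scaling, and 7 of 59 passed, where chance gives about 1 in 20. CNTN6 in Control 3 accounts for 4 of them. It held 632 CPM in Oligo-like nuclei against 23.6 to 161 in the others, 150 CPM in Micro-like nuclei against 7.29 to 60.0, 63.5 CPM in Gran-like nuclei against 4.08 to 18.6, and 48.7 CPM in Astro-like nuclei against 0.714 to 16.5. The remaining 3 were CNTN1 in Oligo-like nuclei of Control 2 (86.1 CPM against 49.0 to 62.8), CNTN4 in Micro-like nuclei of Control 2 (311 CPM against 113 to 171) and CNTN4 in OPC-like nuclei of Control 1 (1200 CPM against 773 to 886).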

How the results depend on the processing

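No member was called in a class in 102 of 104 repeats under the alternatives listed above. Without the low-count filter 2 members were called in Oligo-like nuclei, CNTNAP4 (adjusted p = 0.025) and CNTN6 (adjusted p = 0.000737), and leaving out 1 library gave 0 to 1 in Micro-like nuclei, the 1 being CNTN5 without Control 2 (adjusted p = 0.0108). CNTN6 in Oligo-like nuclei ranged from -1.69 to 1.48 when 1 library was left out, the latter without Control 3, and CNTN2 reversed to -0.09 in the Oligo-like cluster led by ELOVL7 alone, an alternative added after the data were seen. CNTN4 in Oligo-like nuclei could not be fitted in 3 single clusters for want of counts.

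Counts of all called genes moved too, over far more tests than those of the members, so the sizes of the moves cannot be compared. DESeq2 called 219 genes in Astro-like nuclei against 21, 1 in Endo-like against 0, 325 in Pyra-like against 0 and 471 in InN-like against 125. Without the filter the counts were 637 in Astro-like, 1335 in Oligo-like, 540 in OPC-like, 226 in Micro-like, 10 in Endo-like, 1435 in InN-like, 815 in Gran-like and 969 in Pyra-like nuclei. With 1 library left out they ranged from 2 to 231 in Astro-like, 1 to 1018 in Oligo-like, 0 to 419 in OPC-like, 0 to 311 in Micro-like, 0 to 3 in Endo-like, 0 to 510 in InN-like, 0 to 525 in Gran-like and 0 to 163 in Pyra-like nuclei. The cause was not tested.

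The labels do not say whether equal replicate numbers pair the libraries. The correlation of same-numbered deviations lay between -0.18 and 0.07, which cannot show that they are unpaired. Same-numbered libraries were each other's best match for replicate 2 in Astro-like and Gran-like nuclei and replicate 3 in Pyra-like nuclei. With the replicate number as a block, no member was called and the genes called were 6 in Astro-like, 264 in Oligo-like, 1 in OPC-like, 0 in Micro-like, 3 in Endo-like, 0 in Gran-like and 1 in InN-like nuclei.

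The highest class of a member was the same in 35 of 36 repeats. Without the limit of 2500 genes, CNTNAP2 in InN-like nuclei moved to 3580 CPM and fell behind Pyra-like nuclei, while CNTN3 in Pyra-like nuclei moved to 481 CPM and CNTNAP4 in InN-like nuclei to 275. Thinning to 500 UMIs in place of 1000 lowered, and no thinning raised, every leading share: CNTN1 to 55.3% and 90.2%, CNTN2 to 12.7% and 31.3%, CNTN3 to 15.6% and 56.1%, CNTN4 to 35.8% and 75.5%, CNTN5 to 79.7% and 95.7%, CNTN6 to 11.6% and 46.4%, CNTNAP1 to 2.34% and 17.3%, CNTNAP2 to 68.2% and 92.7%, and CNTNAP4 to 13.8% and 58.5%. Low counts limit what can be said of CNTNAP1 and of Oligo-like nuclei in Control 2, of which there were 187.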

Other observations

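CNTNAP3, a gene of the same family that was not among the 10, was called lower in Gran-like nuclei of ALP TSs. It held 24.5, 36.8 and 28.2 CPM in control and 4.05, 4.2 and 3.13 in ALP libraries, so the groups did not overlap, on 14 UMIs in the ALP libraries together. The log2 fold change was -2.85 ± 0.38 (adjusted p = 0.0101 by edgeR), between -3.07 and -2.74 under 13 alternatives. The adjusted p was 0.0979 without ALP 1, 0.142 without ALP 3 and 0.0576 with the replicate block. The gene was singled out after its values were seen. Its level was highest in InN-like nuclei, at 107 CPM, and there the groups overlapped. Before scaling it held 66.6, 108 and 113 CPM there in control and 133, 101 and 119 in ALP libraries. In Pyra-like nuclei CNTNAP3 overlapped too, at 15.5, 93.8 and 58.0 CPM against 18.3, 70.5 and 17.4, also before scaling. A separate feature, CNTNAP3liN, overlapped in Gran-like nuclei, at 11.4, 4.53 and 26.0 CPM against 8.45, 4.76 and 5.73 before scaling.

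A cluster of 47 nuclei with markers of Cajal-Retzius neurons, 27 of them from Control 3, held 8290 CPM of CNTNAP2 and 1540 CPM of CNTN4 with libraries pooled, above the class levels of both genes, and 35.2 CPM of CNTN5. Only Control 3 had enough nuclei for a value of its own, so no spread can be given. Ependymal-like nuclei, 197 in all, held 517 CPM of CNTN1 and 214 of CNTN3.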
